A study of Mus musculus with 6 samples.

Results

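Cytochrome c oxidase, or complex IV, is the terminal enzyme of the mitochondrial respiratory chain. It takes electrons from cytochrome c, hands them to oxygen and pumps protons across the inner membrane. Its catalytic core is encoded by mitochondrial DNA and carries heme a, an iron porphyrin, and copper, while a shell of small subunits encoded in the nucleus stabilises and regulates that core. Osteoclasts, the bone-resorbing cells made by fusion of macrophage precursors, are rich in mitochondria. The genes described here are the 10 broadly expressed nuclear subunits Cox4i1, Cox5a, Cox5b, Cox6a1, Cox6b1, Cox6c, Cox7a2, Cox7b, Cox7c and Cox8a. They were chosen by gene symbol from the 26699 genes that the files list, and each matched a single row.

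Polyadenylated RNA was sequenced from primary macrophages grown from the marrow of mice aged 8 weeks, expanded in 10 ng/mL of M-CSF with a passage at day 2 to 4, after 48 hours with 50 ng/mL of RANKL and 30 ng/mL of M-CSF, the cytokines that drive osteoclast differentiation. The conditional knockout (cKO) cells carried the genotype LysmCre-Slc11a2flox/flox and the control cells Slc11a2flox/flox, so both groups have floxed alleles of Slc11a2, the gene of the iron transporter DMT1, and only cKO cells have Cre. This Cre is driven by the lysozyme M promoter, active in myeloid cells, and the controls lacked it, so effects of Cre and of Slc11a2 loss cannot be told apart. Each genotype had 3 libraries. The labels do not tell whether they are separate animals or cultures, and the p-values therefore reflect library-to-library spread that may be only technical.

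Library totals ranged from 49720701 to 55279336 reads in cKO and from 52989755 to 57797282 in control cells. Slc11a2 stood at 82.8 ± 4.56 CPM (read counts scaled to a common library size, with TMM factors) in cKO and 116 ± 5.09 CPM in control libraries (SD, n = 3 each), lower in every cKO library. Lyz2, the gene whose promoter drives the Cre, stood at 7783 ± 96.8 CPM in cKO and 17105 ± 1577 CPM in control libraries (SD, n = 3 each). All 8 macrophage markers and all 10 osteoclast markers were detected in both genotypes, with summed levels of 6488 to 6996 CPM in cKO against 6700 to 7226 CPM in control cells for the macrophage list. The osteoclast list, which includes Acp5, Ctsk and Mmp9, summed to 8535 to 12212 CPM in cKO and 11787 to 15309 CPM in control libraries. Its median log2 fold change was -0.39, with 0 of 10 genes called (edgeR adjusted p below 0.05), against 2.42% of all genes tested. At an unadjusted edgeR p under 0.05 these 3 of the 10 were lower, against 8.79% of all genes tested in that direction. Each of Acp5, Ctsk and Mmp9 was lower in all cKO libraries except that cKO replicate 3 stood above control replicate 2 in Ctsk and Mmp9. Neutrophil markers summed to 47.0 to 60.5 CPM in cKO and 20.5 to 25.6 CPM in control libraries. Of 6 tested, 4 were called higher (S100a8, S100a9, Ngp and Ltf), against 1.36% of all genes tested. Camp, Elane and Mpo stood at 1.17 CPM or less, with overlapping groups. The mean of Camp was higher in cKO, while those of Mpo (0.479 against 0.842 CPM) and Elane (0.0847 against 0.302 CPM) were lower. Stromal markers, mostly Col1a1 and Col1a2, summed to 3089 to 4965 CPM in cKO and 3306 to 3856 CPM in control libraries. The median log2 fold change of the 5 stromal genes tested was 0.35, with 0 called higher, against 1.36% of all genes tested. Pdgfrb was higher in every cKO library, at 69.3 ± 9.52 against 54.5 ± 2.46 CPM in control libraries (SD, n = 3 each). The groups of Col1a1, Col1a2, Dcn and Cxcl12 overlapped. Erythroid, B cell, T and NK cell, endothelial and muscle lists stayed at or below 5.78 CPM in sum. Among them Cd79a, Pax5, Cd8a and Klf1 were at 0 in at least 3 libraries. The part of these markers in the results below was not tested. In bulk RNA, fewer cells of a type and less RNA per cell cannot be told apart.

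All 10 nuclear subunit genes were lower in cKO cells, with changes of -14.8% to -24.8%, and in each of them every cKO library lay below every control library. Such complete separation in this direction was seen in 11.4% of the 16843 genes tested. At an adjusted p below 0.05, 2 of the 10 fell, Cox5a and Cox6a1, against 1.06% of all genes tested, and 0 rose, against 1.36%. All 10 had an unadjusted p under 0.05, as had 17.2% of tested genes in either direction and 8.79% in the lower direction. The median log2 fold change of the 10 genes was -0.25, against 0.00 over all genes tested. The test was edgeR's quasi-likelihood F test across all genes with Benjamini-Hochberg adjustment, and it called 407 genes, or 2.42%, of which 178 were lower and 229 higher. With TMM 43.7% of the calls were lower, and with upper-quartile scaling or with the length trend described below removed 33.1%.

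**Figure D1:**
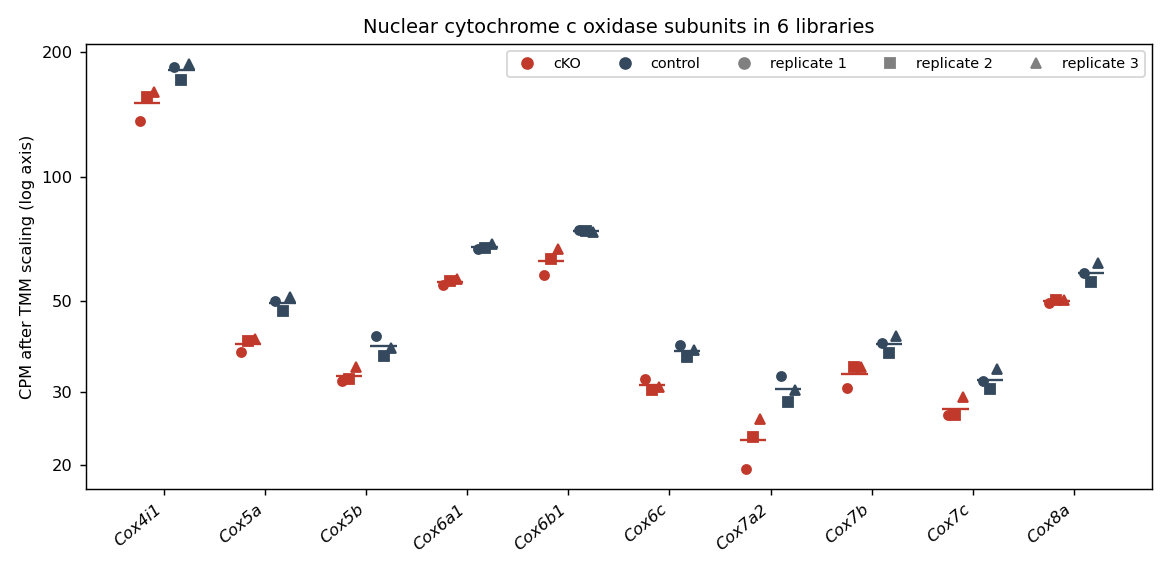
Level of each subunit gene (CPM after TMM scaling, log axis) in the 3 cKO libraries (red, left) and the 3 control libraries (dark, right), with symbols for replicates and a line at each mean. In all 10 genes the 3 cKO symbols lie below the 3 control symbols, with the widest spread in Cox7a2, from 19.6 to 25.9 CPM in cKO and 28.4 to 32.9 CPM in control libraries.

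The promoters of the called genes and of the gene with the largest adjusted p, Cox7c, are shown because they are the ends of the range of evidence within this family. They are RefSeq sequences on build GRCm38.p6, from 250 bases before to 50 bases after the annotated start, in the direction of transcription. Motif positions count from that start, which differs from the start in the gene coordinates given below. The Cox7c coordinates begin upstream of it and take in the YY1 letters. Capitals mark the letters of the motifs searched on both strands, so a motif on the opposite strand appears as its reverse complement.
Cox5a, chr9:57520982-57521281, plus strand: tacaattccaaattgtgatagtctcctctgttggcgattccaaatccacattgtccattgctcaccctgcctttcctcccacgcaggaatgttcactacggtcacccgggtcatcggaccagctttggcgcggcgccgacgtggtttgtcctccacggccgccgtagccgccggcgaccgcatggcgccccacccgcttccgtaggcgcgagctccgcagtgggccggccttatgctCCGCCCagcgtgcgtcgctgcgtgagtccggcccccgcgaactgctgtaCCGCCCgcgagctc
Cox6a1, chr5:115348909-115349208, minus strand: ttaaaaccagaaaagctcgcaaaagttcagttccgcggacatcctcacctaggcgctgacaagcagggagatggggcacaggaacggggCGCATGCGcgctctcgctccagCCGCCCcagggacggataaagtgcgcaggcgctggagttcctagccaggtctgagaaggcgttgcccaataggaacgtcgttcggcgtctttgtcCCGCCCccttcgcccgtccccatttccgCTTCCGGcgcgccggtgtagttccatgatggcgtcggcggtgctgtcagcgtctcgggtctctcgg
Cox7c, chr13:86046746-86047045, minus strand: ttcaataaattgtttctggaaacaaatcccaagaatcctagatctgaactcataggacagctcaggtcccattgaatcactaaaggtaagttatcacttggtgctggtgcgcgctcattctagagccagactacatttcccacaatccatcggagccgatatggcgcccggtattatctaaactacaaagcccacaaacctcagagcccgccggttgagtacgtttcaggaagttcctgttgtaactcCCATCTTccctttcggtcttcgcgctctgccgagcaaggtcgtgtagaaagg

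The motifs were those of factors known to act on genes of the respiratory chain: GCATGCG, the core of the NRF1 site, CCGGAAG for GABPA (also called NRF-2), AAGATGG for YY1 and GGGCGG for SP1. Of the 10 genes, 8 had a promoter in the table, all except Cox4i1 and Cox6c. The NRF1 core was in 1 of these 8, Cox6a1, where the letters overlap on both strands at 161 and 160 bases before the start, and in 3.58% of all 32851 promoters of that length. The GABPA letters were in Cox6a1, Cox6b1 and Cox8a, or 3 of 8, against 8.86% of all promoters. They lay 16 bases before the start in Cox6a1, 28 before it in Cox6b1 and 5 before it in Cox8a, where a further match lay 32 bases after it. The YY1 letters were in 1 of 8, Cox7c, 2 bases before the start, against 6.34% of all promoters. SP1 letters were in Cox5a, Cox6a1 and Cox7a2, against 35.7% of all promoters. Among the 14466 promoters of tested genes the shares were higher, at 5.87% for NRF1, 16.1% for GABPA, 6.89% for YY1 and 59.6% for SP1. The called pair thus shared only the SP1 letters among the 4 motifs, and the uncalled Cox7a2 held them too. A match describes these letters in this window and does not show binding.

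Subunits 4 and 5A join the core early, when the complex is built around its largest mitochondrially encoded subunit. Cox4i1 encodes the common isoform of subunit 4, a membrane-spanning subunit with a part in allosteric control of the enzyme (ENSMUSG00000031818, mm10 chr8:120668222-120674207, plus strand). It stood at 136, 156 and 160 CPM in cKO replicates 1 to 3 and at 184, 171 and 187 CPM in control replicates 1 to 3. The lowest library was cKO replicate 1 and the groups did not overlap. The log2 fold change was -0.26 ± 0.07 (SE), with an edgeR adjusted p of 0.078. Cox5a encodes a subunit on the matrix side that binds subunit 4 (ENSMUSG00000000088, chr9:57521274-57532426, plus strand). Its levels were 37.6, 39.9 and 40.5 CPM in cKO replicates and 49.9, 47.2 and 51.0 CPM in control replicates 1 to 3. The gap between the genotypes was wider than the whole range within either genotype. Its log2 fold change was -0.33 ± 0.07 (SE, 95% interval -0.47 to -0.18), a fall of 20.3%, with an edgeR adjusted p of 0.0284.

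Subunits 5B and 6B lie on opposite faces of the enzyme. Cox5b encodes a zinc-binding subunit on the matrix side (ENSMUSG00000061518, chr1:36691449-36693681, plus strand). It had 31.9, 32.3 and 34.6 CPM in cKO and 41.1, 36.8 and 38.4 CPM in control replicates 1 to 3. The groups were separate but close, with cKO replicate 3 and control replicate 2 nearest to each other. The log2 fold change was -0.23 (95% interval -0.39 to -0.07, edgeR adjusted p = 0.129). Cox6b1 encodes a subunit on the intermembrane side, where the complex forms dimers and meets cytochrome c (ENSMUSG00000036751, chr7:30616861-30626151, minus strand). It had 57.7, 63.2 and 66.7 CPM in cKO and 74.2, 74.0 and 73.2 CPM in control replicates 1 to 3. The control libraries were nearly level, and the spread lay within cKO. Its log2 fold change was -0.24 ± 0.06 (SE, edgeR adjusted p = 0.0812).

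Several of the remaining subunits are single membrane-spanning chains, some with a second isoform in heart and skeletal muscle. Cox6a1 encodes the isoform of subunit 6A found outside those muscles (ENSMUSG00000041697, chr5:115345642-115348981, minus strand). Its levels were 54.6, 55.8 and 56.5 CPM in cKO and 66.8, 67.2 and 68.5 CPM in control replicates 1 to 3. Among the 10 genes it had the smallest SD in relation to its gap, at 55.6 ± 0.957 CPM in cKO and 67.5 ± 0.928 CPM in control libraries (SD, n = 3 each). The log2 fold change was -0.28 ± 0.06 (SE, 95% interval -0.40 to -0.15), a fall of 17.6%, with an edgeR adjusted p of 0.029. Cox7a2 encodes the corresponding broad isoform of subunit 7A (ENSMUSG00000032330, chr9:79755361-79759878, minus strand). It had 19.6, 23.4 and 25.9 CPM in cKO and 32.9, 28.4 and 30.4 CPM in control replicates 1 to 3. Its difference was the largest of the 10, at -0.41 ± 0.10 on the log2 scale (SE, 95% interval -0.64 to -0.18), and its spread was the widest, so the edgeR adjusted p was 0.0642. Much of that spread came from cKO replicate 1, which was 0.64 below the control mean on the log2 scale (-0.639, against -0.382 and -0.235 in cKO replicates 2 and 3).

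The other 4 genes lay close together in size of difference. Cox6c encodes a small membrane subunit (ENSMUSG00000014313, chr15:35925886-35938246, minus strand), and had 32.4, 30.5 and 30.9 CPM in cKO against 39.0, 36.5 and 38.0 CPM in control replicates 1 to 3. Here cKO replicate 1 was the highest of the cKO libraries. The log2 fold change was -0.28 ± 0.07 (SE, edgeR adjusted p = 0.0634). Cox8a, the common isoform of subunit 8 (ENSMUSG00000035885, chr19:7215153-7217616, minus strand), had 49.3, 50.1 and 50.3 CPM in cKO against 58.3, 55.6 and 61.7 CPM in control replicates 1 to 3, a log2 fold change of -0.23 ± 0.06 (SE, edgeR adjusted p = 0.083). The cKO libraries were nearly level and the spread lay within control. Cox7b, an X-linked subunit gene mutated in a human syndrome with skin defects (ENSMUSG00000031231, chrX:106015700-106022450, plus strand), had 30.7, 34.6 and 34.5 CPM in cKO against 39.6, 37.3 and 41.0 CPM in control replicates 1 to 3 (log2 fold change -0.24, 95% interval -0.40 to -0.07, edgeR adjusted p = 0.133). Cox7c, another small membrane subunit (ENSMUSG00000017778, chr13:86044816-86046904, minus strand), had 26.5, 26.4 and 29.2 CPM in cKO against 31.9, 30.6 and 34.2 CPM in control replicates 1 to 3 (log2 fold change -0.24, 95% interval -0.41 to -0.06, edgeR adjusted p = 0.151). In both, the groups were separate by a small margin. The 95% intervals of all 10 genes hold the family's median of -0.25, and differences between subunits in the size of the change were not tested.

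**Figure D2:**
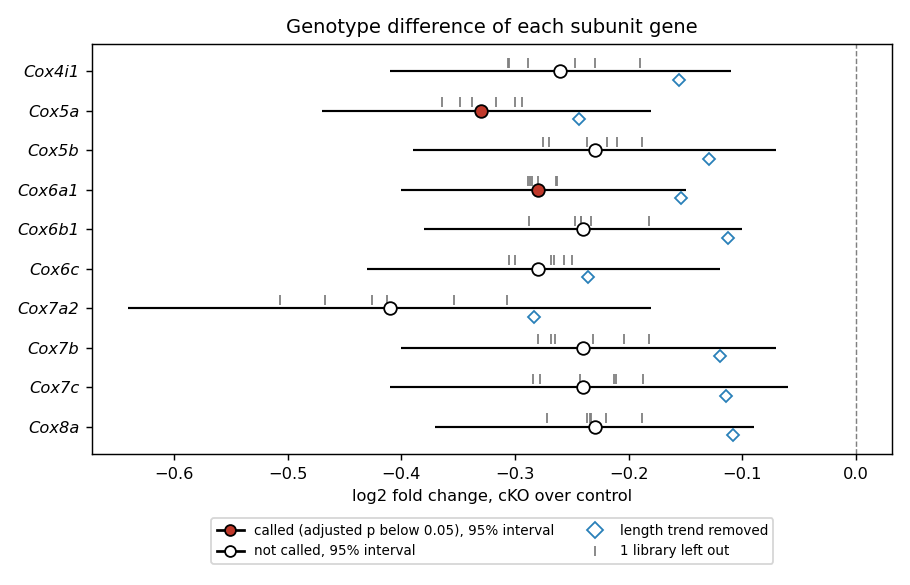
Log2 fold change of each subunit gene, cKO over control, with its 95% interval; filled circles are called and open circles are not. Blue diamonds give the value with the trend over transcript length removed, and grey ticks the values with 1 library left out. All values lie below 0, and the diamonds lie nearer to 0 than the circles for all 10 genes.

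The cKO libraries were ordered 1, 2, 3 from low to high in 7 of the 10 genes, and the control libraries 2, 1, 3 in 5 of 10. The mean of the 10 genes relative to the control mean was -0.348, -0.265 and -0.209 on the log2 scale in cKO replicates 1 to 3, and 0.026, -0.060 and 0.033 in control replicates 1 to 3. In 8 of the 10 genes cKO replicate 1 was the lowest of the 6 libraries, and in the other 2 it was cKO replicate 2. In 8 of 10 control replicate 2 was the lowest control, and the highest was control replicate 3 in 6 genes and control replicate 1 in 4. Together the 10 genes summed to 476, 513 and 529 CPM in cKO and 617, 584 and 624 CPM in control replicates 1 to 3. The osteoclast markers summed to 9139, 8535 and 12212 CPM in cKO and 12831, 11787 and 15309 CPM in control replicates 1 to 3. The control libraries were in the same order in both sums and cKO replicate 3 was the highest cKO library in both, while cKO replicates 1 and 2 were in opposite order. The part of the osteoclast share of the cells in the subunit levels was not tested.

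The calls of Cox5a and Cox6a1 held without cKO replicate 3 and were lost without each of the other 5 libraries. Without cKO replicate 1 their edgeR adjusted p became 0.177 and 0.174, without cKO replicate 2 0.0553 and 0.0584, and without control replicate 1, 2 or 3 between 0.052 and 0.121. In each of these fits 0 of the 10 genes were called, against 0.116% to 0.641% of all genes tested called lower. Without cKO replicate 3, 5 of the 10 genes were called lower, the pair together with Cox4i1, Cox6b1 and Cox7a2, against 1.79% of all genes tested. DESeq2 called 7 of 10 lower, all except Cox5b, Cox7b and Cox7c, against 2.64% of all genes tested. The log2 fold changes of all 10 genes were negative in each of the 16 alternatives tried.

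Transcript length moved with the genotype difference. The subunit genes have principal transcripts of 540 to 1001 bases, against a median of 3025 bases over the tested genes with such a transcript. Among genes above a mean of 3 log2 CPM, the shortest of 10 equal groups, 915 genes with principal transcripts of 204 to 1385 bases, had a median log2 fold change of -0.137, and the longest group had 0.050. The median length in that shortest group was 1060 bases, above that of all 10 subunit genes. The median of the short genes relative to the control mean was -0.158, -0.073 and -0.160 in cKO replicates 1 to 3 and 0.051, -0.027 and -0.025 in control replicates 1 to 3. The median of the subunit genes was -0.329, -0.268 and -0.202 in cKO replicates 1 to 3, with cKO replicates 2 and 3 in the other order. With the trend over the length implied by the deposited counts and FPKM removed, the median of the 10 genes was -0.14. In that fit 0 of 10 were called, against 0.712% of all genes tested called lower, with Cox5a at an edgeR adjusted p of 0.0781 and Cox6a1 at 0.215. At an unadjusted p under 0.05 there were 5 of 10 in that fit. With principal transcript lengths, chosen after seeing the data, there were 3 of 10, and 0 of 10 were called, against 0.689% of all genes tested called lower. Cox5a was then at an edgeR adjusted p of 0.16 and Cox6a1 at 0.247. The share of all genes at an unadjusted p under 0.05 is given above for the main fit only. The part of length in the difference was not tested further.

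**Figure D3:**
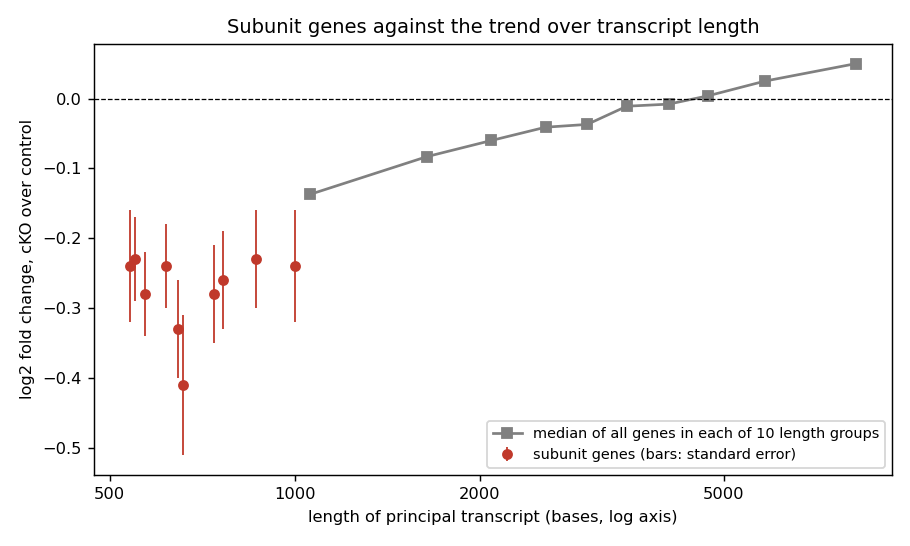
Log2 fold change, cKO over control, against the length of the principal transcript (bases, log axis). Grey squares are medians of 10 equal groups of genes, placed at each group's median length, from -0.137 in the shortest to 0.050 in the longest, and red points are the 10 subunit genes with their standard errors, from -0.41 to -0.23.

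Levels can be compared between genes only per length, and the order of the family depended on the length used. In the deposited FPKM (reads scaled to library size and to exon length) Cox4i1 was highest, at 84.6 ± 8.06 in cKO and 101 ± 5.16 in control cells (SD, n = 3 each). Next came Cox6b1 at 70.0 to 81.8 FPKM in cKO and 89.7 to 90.2 FPKM in control libraries. Cox8a ranged over 68.4 to 71.3 FPKM in cKO and 77.4 to 86.5 FPKM in control libraries, and Cox6a1 over 66.9 to 70.1 FPKM in cKO and 81.8 to 84.7 FPKM in control libraries. Within cKO the ranges of neighbours among these 4 overlapped, and a clear step separated them from the other 6 genes, the highest of which was Cox7b at 23.8 ± 1.84 FPKM in cKO. Cox6c was lowest at 7.62 ± 0.168 FPKM in cKO and 9.15 ± 0.305 FPKM in control cells. The FPKM lengths follow all annotated exons, which total 3567 bases for Cox6c and 2101 bases for Cox5a, whereas their principal transcripts hold 738 and 645 bases. Per kilobase of principal transcript, Cox6c stood at 42.4 ± 1.39 CPM in cKO and 51.3 ± 1.73 CPM in control cells, which placed it at rank 7 instead of 10, and Cox5a at rank 5 instead of 9. On that scale Cox4i1 stayed highest, at 197 CPM per kilobase in cKO and 236 CPM per kilobase in control cells, and Cox7b had the lowest mean, at 33.2 ± 2.23 CPM per kilobase in cKO and 39.2 ± 1.86 in control cells (SD, n = 3 each). In cKO its range overlapped that of Cox7a2, whose lowest library was at 29.7 CPM per kilobase against 34.6 for the highest of Cox7b.

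**Figure D4:**
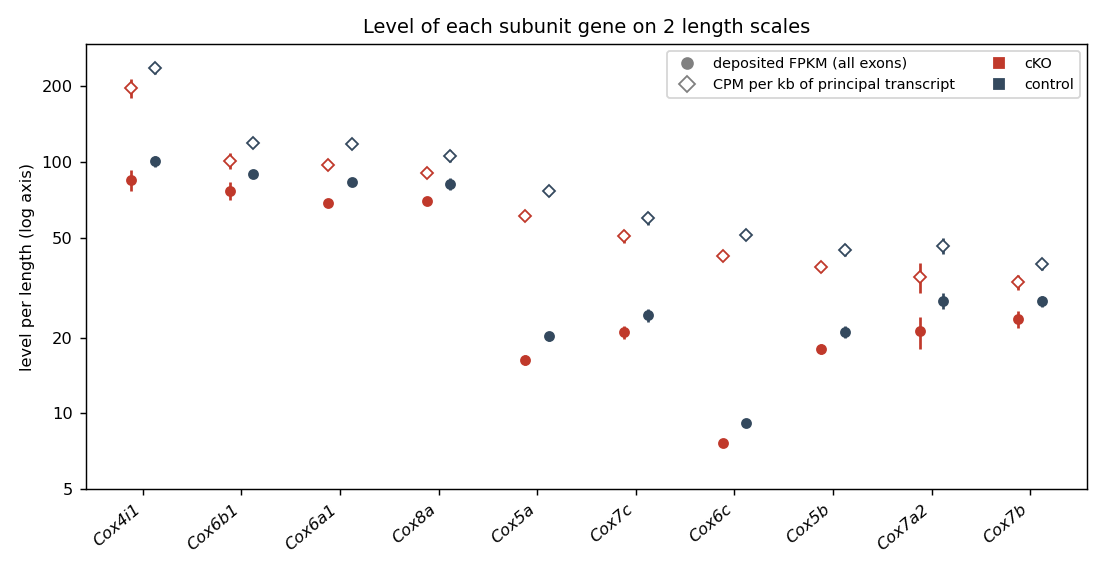
Mean level of each subunit gene in cKO (red, left) and control cells (dark, right) on a log axis, as deposited FPKM over all annotated exons (filled circles) and as CPM per kilobase of principal transcript (open diamonds), with SD over 3 libraries. Cox4i1 is highest on both scales, and Cox6c is lowest in FPKM, at 7.62 in cKO, but not per principal transcript.

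The reads behind some members are less certain than others. The exons of Cox4i1 overlap 154 bases of Emc8, those of Cox5a 269 bases of the noncoding Gm26631 and those of Cox6c 250 bases of Vps13b, all on the opposite strand, and whether counting used the strand is not stated. Gm26631 had at most 26 reads in any library against at least 1895 for Cox5a, while Vps13b had 6822 to 8598 against at least 1634 for Cox6c. Copies of at least 95% identity over 100 bases or more were found in GENCODE M21 for Cox5b, Cox6c, Cox7b and Cox7c. Their rows held at most 7.21% of the reads of Cox5b, 6.06% of Cox7c, 0.729% of Cox6c and 0.218% of Cox7b. No such copy elsewhere was found for the other 6 genes, including Cox5a and Cox6a1.

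The catalytic core is encoded by mitochondrial DNA, and its transcripts were compared beside the nuclear subunits. mt-Co3, which encodes the third core subunit, fell: it stood at 1644, 1678 and 1640 CPM in cKO and 1981, 1953 and 2180 CPM in control replicates 1 to 3, without overlap. Its log2 fold change was -0.30 ± 0.06 (SE, edgeR adjusted p = 0.0307). mt-Co1, whose product holds heme a and a copper centre, had 13135 ± 361 CPM in cKO and 14500 ± 641 CPM in control libraries (SD, n = 3 each), with a log2 fold change of -0.14 (95% interval -0.29 to 0.00, edgeR adjusted p = 0.299). mt-Co2, whose product receives electrons from cytochrome c, had 2347 ± 145 CPM in cKO and 2474 ± 174 CPM in control libraries, with overlapping groups and a log2 fold change of -0.08 (95% interval -0.23 to 0.08), whose sign turned under some alternatives. Nuclear copies share these sequences: the row of Gm28437 held 99.9% to 100% of the count of mt-Co3 in every library and that of Gm28661 99.3% to 99.7% of the count of mt-Co2, so the reads of each pair cannot be told apart. In FPKM, the mean of the mitochondrially encoded subunits was 109, 96.8 and 94.2 times that of the nuclear ones in cKO replicates 1 to 3. It was 89.2, 92.7 and 95.3 times in control replicates 1 to 3, and the ranges overlapped. The size of these multiples depends on the length used. All annotated exons are 1.13 (Cox8a) to 4.83 (Cox6c) times the principal transcript in the nuclear genes and 1.0 times in the mitochondrial ones. Per principal transcript the multiples would therefore be smaller.

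A list of 58 other genes of the enzyme, its assembly and its regulation, the core subunits included, had 49 tested, of which 0 rose, against 1.36% of all genes tested, and 3 fell, against 1.06%. The 3 were mt-Co3, Ndufa4 and Cycs. Ndufa4, a subunit once assigned to complex I, had 35.1, 36.3 and 34.1 CPM in cKO and 41.5, 44.9 and 47.4 CPM in control replicates 1 to 3. The groups were well apart, with a log2 fold change of -0.34 ± 0.07 (SE, edgeR adjusted p = 0.0309). Cycs, cytochrome c itself, the electron donor of the enzyme, had 79.5, 76.6 and 90.3 CPM in cKO and 99.5, 100 and 111 CPM in control replicates 1 to 3. It fell by 0.33 on the log2 scale (SE 0.07, edgeR adjusted p = 0.0354). Hccs, the lyase that attaches heme to cytochrome c, was at -0.27 ± 0.11 (adjusted p = 0.226). Cox7a2l, which tethers complexes III and IV, was at -0.20 ± 0.06 (adjusted p = 0.133), and the associated proteins Higd2a and Higd1a at -0.14 ± 0.09 and -0.07 ± 0.16. With 1 library left out, the call of Ndufa4 was lost whichever it was (edgeR adjusted p 0.0519 to 0.173), and those of mt-Co3 and Cycs held only without cKO replicate 3. With the trend over implied length removed all 3 calls were lost. The edgeR adjusted p values were 0.178 for mt-Co3, 0.142 for Ndufa4 and 0.0668 for Cycs, and the log2 fold change of mt-Co3 became -0.175. With principal transcript lengths instead, Cycs was called (edgeR adjusted p = 0.0381) and mt-Co3 and Ndufa4 were not. The same held with a replicate block and the trend over implied length removed (edgeR adjusted p = 0.0104 for Cycs). With limma-voom Ndufa4 (adjusted p = 0.0508) and Cycs (adjusted p = 0.0582) were not called.

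Of the assembly factors 0 of 26 tested were called by edgeR, against 2.42% of all genes tested, and 0 by limma-voom, which called 266 genes. At an unadjusted edgeR p under 0.05 there were 8 of 26, against 17.2% of all genes tested. The median log2 fold change was -0.17. DESeq2 called 1 of 26 lower, against 2.64% of all genes tested. It was Smim20, a factor for the maturation of the core, whose edgeR log2 fold change was -0.44 ± 0.13 (SE, adjusted p = 0.108, named after its value was seen). Cox10 and Cox15 make heme a from heme b, and stood at -0.24 ± 0.10 (adjusted p = 0.226) and -0.23 ± 0.08 (adjusted p = 0.178), and Surf1, which helps to insert heme a, at -0.18 ± 0.10. In the copper group the chaperone Cox17 was at -0.28 ± 0.13 (adjusted p = 0.269), Cox16 at -0.10 ± 0.15, Sco1, which loads the copper centre of subunit 2, at -0.07 ± 0.18 and Cmc1 at 0.09 ± 0.14. Among factors for the maturation of core subunits, Coa3 was at -0.24 ± 0.10 (adjusted p = 0.221), Lrpprc, which stabilises mitochondrial mRNAs, at -0.21 ± 0.07 (adjusted p = 0.155), Coa5 at -0.14 ± 0.06 and Cox14 at -0.10 ± 0.14. The signs of Sco1, Cox16 and Cox14 turned under some alternatives, and a difference in size between assembly factors and subunits was not tested.

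**Figure D5:**
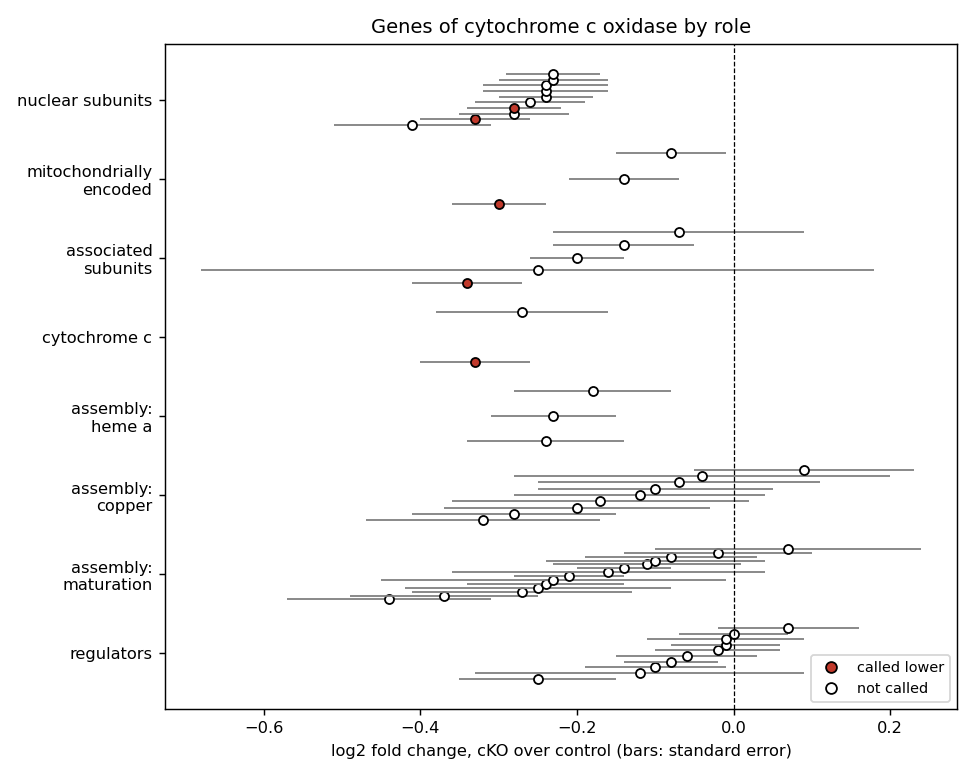
Log2 fold change, cKO over control, of tested genes of the enzyme by role, with standard errors. Filled circles were called lower. The 3 tested isoforms of other tissues, at 0.46 to 0.70 with 0 called, are not plotted. The 10 nuclear subunits lie between -0.41 and -0.23, while assembly factors run from -0.44 to 0.09 and regulators from -0.25 to 0.07.

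Regulators of respiratory gene transcription had a median log2 fold change of -0.04. Of 11 listed, 10 were tested and 0 were called by edgeR, DESeq2 or limma-voom. These tools called 407, 874 and 266 of all 16843 genes tested. At an unadjusted edgeR p under 0.05 there was 1 of 10, against 17.2% of all genes tested, so these counts are near the shares over all genes. The 1 gene was Tfam, which maintains and transcribes mitochondrial DNA (-0.25 ± 0.10, edgeR adjusted p = 0.244, named after its value was seen). Sp1 was at 0.00 ± 0.07, Yy1 at -0.08 ± 0.06, Gabpa at 0.07 ± 0.09 and the coactivator Pprc1 at -0.01 ± 0.07 on the log2 scale, all with overlapping groups, and those of Sp1, Gabpa and Pprc1 turned sign under some alternatives. Isoforms of other tissues were scarce. Cox7a1 and Cox6a2, the heart and muscle isoforms, averaged 0.675 ± 0.344 and 0.532 ± 0.109 CPM in cKO and 0.489 ± 0.127 and 0.325 ± 0.180 CPM in control cells (SD, n = 3 each), and the testis isoform Cox6b2 0.314 ± 0.193 CPM in cKO and 0.202 ± 0.0589 CPM in control cells. Their groups overlapped, and 0 of the 3 were called by edgeR or limma-voom, with 0 at an unadjusted edgeR p under 0.05. Over all genes tested the edgeR shares were 2.42% called and 17.2% at an unadjusted p under 0.05. Cox4i2, the isoform of subunit 4 known from lung, was too low to test, at 0.238, 0.161 and 0.244 CPM in cKO and 0, 0.0523 and 0.0872 CPM in control replicates 1 to 3, with every cKO library above every control library. Set against the muscle isoforms Cox6a2 and Cox7a1 alone, the broad isoforms Cox6a1 and Cox7a2 thus supplied nearly all reads. Cox7a2l was not counted in that comparison, and stood at 108 ± 6.16 CPM in cKO and 125 ± 7.27 CPM in control libraries (SD, n = 3 each).

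The nuclear subunits did not stand alone in the respiratory chain. Among 78 other nuclear genes that the files annotate to oxidative phosphorylation, vacuolar pump genes left out, the median log2 fold change was -0.24. Of these 78, 74 (94.9%) were negative, against 49.6% of all genes tested, 9 were called lower, against 1.06%, and 0 higher, against 1.36%. With the vacuolar pump genes and the mitochondrially encoded genes included, the list held 110 genes, with a median of -0.24. Of these 110, 17 were called lower, against 1.06% of all genes tested, and 0 higher, against 1.36%. The lower calls were thus not limited to the 78 genes. The part of transcript length in either list was not tested. The genes whose profile over the 6 libraries was closest to the mean of the family were Tgm2, a transglutaminase, Plp2, a membrane proteolipid, Gtf2a1, a general transcription factor subunit, Sdhd, a membrane anchor of succinate dehydrogenase, and Stard7, a lipid transfer protein. Their root mean square differences from the family's centred log2 profile were 0.0192, 0.0230, 0.0242, 0.0250 and 0.0289, among 4111 genes with a mean of at least 50 CPM, against 0.0297 for Cox5a, the closest member, and 0.114 for Cox7a2, the farthest. Tgm2 had 114 ± 6.43 CPM in cKO and 137 ± 5.84 CPM in control libraries, and Sdhd 96.5 ± 5.79 CPM and 115 ± 2.54 CPM (SD, n = 3 each). Their lower levels in cKO follow from the choice by profile and are no separate result.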

How the data were processed

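The authors deposited, per library, whole-number read counts per gene without normalization and FPKM values, per the file headers. The submitters' processing notes name cutadapt 1.9 and build mm10; the aligner, counter, annotation and strand setting are not stated. Genes were kept by filterByExpr (minimum count 10, minimum total 15), scaled by TMM and tested with edgeR 4.0.16 in R 4.3.3 (robust quasi-likelihood F test, 3 cKO against 3 control libraries), adjusted by Benjamini-Hochberg over 16843 genes and called below 0.05. The standard error is the log2 fold change divided by the root of F. Alternatives used DESeq2 1.42.0, limma 3.58.1, other scalings and filters, each library left out, a replicate block and removal of a length trend (loess, span 0.5). The scripts were tested on simulated data. Libraries of a genotype differed by a chi-square of 15.1 to 33.1 per degree of freedom, more than counting noise, so none was counted as the same library deposited again; repeat preparations of a sample would also differ by more. Of the gene identifiers, 99.76% were in GENCODE M21, whose longest APPRIS principal transcript gave transcript lengths and in which copies were sought with BLAST 2.17.0. A single read was worth 0.0173 to 0.0201 CPM. Members and lists were chosen with earlier results of these data known. All 10 members are named; of other complex IV genes, those called and, per role, up to 4 with the highest level; and the 5 genes closest in profile.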

Additional observations from a re-analysis of the deposited data

How the results depend on the processing

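The 10 subunit genes kept negative log2 fold changes under all 16 alternatives, while the calls depended on the setting. Over all genes 407 were called; the count was 874 with DESeq2, 266 with limma-voom, and 59 to 624 with 1 library left out. Of the 10 subunit genes 2 were called lower, against 1.06% of all genes tested. The count was 7 with DESeq2, against 2.64%. With 1 library left out it was 0 to 5, against 0.116% to 1.79%. With the length trend removed, 0 were called, against 0.712%, and the median was -0.141. With principal transcript lengths, chosen after seeing the data, 0 were called, against 0.689%, and the median was -0.127. Same-numbered libraries did not pair: their deviations from the genotype means had correlations across genes of -0.077, 0.050 and 0.262, and not every library correlated best with its own number. With the replicate block 673 genes were called, and 3 subunit genes were called lower, against 2.12% of all genes tested. With the block and the length trend removed 736 genes and 0 subunit genes were called, against 2.0% of all genes called lower, at a subunit median of -0.142. The cause of these changes was not tested. Among the values of single named genes, 41 lost a call, 11 gained one and 20 changed sign, all 20 of genes not called in either fit. With the length trend removed mt-Co2 was at 0.049, with the block as well at 0.050, and with principal lengths at 0.058, where Cox14 was at 0.029. Sp1 and Pprc1 were at 0.018 and 0.013 with upper-quartile scaling and at 0.011 and 0.006 with the filter of 100 reads. With 1 library left out, the log2 fold change ranged over -0.033 to 0.673 for Cox7a1, -0.260 to 0.045 for Higd1a, -0.253 to 0.142 for Sco1, -0.188 to 0.021 for Cox16, -0.196 to 0.038 for Cox14, -0.054 to 0.059 for Sp1, -0.078 to 0.033 for Pprc1 and -0.004 to 0.148 for Gabpa.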
